A study of Mus musculus with 50 samples.

Results

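Expression of 10 genes of epithelial cell junctions and epithelial splicing was followed across 50 mammary gland (MG) tumors of mice. They were taken by gene symbol among 37701 genes with a value in RPKM, the number of reads divided by gene length in kilobases and by library size in M reads. The 10 genes were *Cdh1*, *Epcam*, *Cldn3*, *Cldn4*, *Cldn7*, *Ocln*, *Esrp1*, *Esrp2*, *Grhl2* and *Cdh2*, and each symbol matched 1 row. The first 9 are called epithelial genes here, and *Cdh2* is their mesenchymal counterpart.

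The tumors came from female p53R270H/+WAPCre mice, 10 tumors per group. All 5 groups, the vehicle group included, carried 1 mutant p53 allele that Cre recombinase switches on under the whey acidic protein promoter, which is active in mammary epithelium. From an age of 8 weeks, mice received injections under the skin of vehicle, insulin, glargine, X10 or IGF1 on alternate days, and a tumor was collected at 1 cm3, 24 h after the last injection. Insulin-like growth factor 1 (IGF1) acts on a receptor related to that of insulin, and both glargine and X10 are insulin analogs. The comparisons ask whether chronic exposure to each ligand goes with a different epithelial expression state. Samples titled untreated were used as the vehicle group, because the series design names vehicle as the only group without ligand. According to the study, only tumors of a type resembling epithelial to mesenchymal transition (EMT) were sequenced, so that the groups had been narrowed by tumor type before sequencing. In each group, these were the tumors whose latency (time to the first palpable tumor) lay nearest to the group's median. The study reported a shorter latency with X10 and IGF1, so age and length of exposure were not matched between groups. Each tumor is named by its label, in which Untreated stands for vehicle, and each label is 1 tumor. Libraries held between 26.6 and 51.9 M reads, with group medians from 35.4 M reads for X10 to 44.0 M reads for vehicle.

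E-cadherin, the product of *Cdh1*, joins neighbouring epithelial cells at adherens junctions, and EpCAM is an adhesion protein of epithelial surfaces. Claudins and occludin (*Cldn3*, *Cldn4*, *Cldn7*, *Ocln*) build tight junctions, which seal the space between cells. ESRP1 and ESRP2 are RNA-binding proteins that set the epithelial pattern of alternative splicing, and GRHL2 is a transcription factor that keeps epithelial genes on. During EMT these genes go down and N-cadherin, the product of *Cdh2*, often comes up, while factors such as ZEB1 and SNAI1 bind E-box motifs in the promoters of epithelial genes and repress them.

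The epithelial genes lie on 7 chromosomes of the mouse genome (GRCm38, GENCODE M21), with *Cldn3* near *Cldn4* and *Esrp2* on the same chromosome as *Cdh1*. *Cdh1* lies on chr8:106603351-106670246 (plus strand) and *Epcam* on chr17:87635979-87651129 (plus strand). *Cldn4* (chr5:134945119-134946934, minus strand) and *Cldn3* (chr5:134986214-134987472, plus strand) are separated by 39279 bases. *Cldn7* lies on chr11:69964779-69967885 (plus strand) and *Ocln* on chr13:100496507-100552718 (minus strand). *Esrp1* lies on chr4:11331933-11386783 (minus strand), *Esrp2* on chr8:106130319-106136974 (minus strand), 466376 bases before *Cdh1*, and *Grhl2* on chr15:37233036-37363569 (plus strand).

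RefSeq promoter sequences (GRCm38.p6) were found for 5 of the 10 genes, *Epcam*, *Cldn3*, *Cldn4*, *Cldn7* and *Ocln*. The 250 bases before the gene start are shown for 3 of them, with every E-box match in capitals. The 3 are *Epcam* and *Cldn4*, the only 2 of the 5 with a match, and *Cldn3*, which lies near *Cldn4* and held 0 matches. The E-box searched was CAGGTG or, on the other strand, CACCTG.
*Epcam*, chr17:87635729-87635978, plus strand: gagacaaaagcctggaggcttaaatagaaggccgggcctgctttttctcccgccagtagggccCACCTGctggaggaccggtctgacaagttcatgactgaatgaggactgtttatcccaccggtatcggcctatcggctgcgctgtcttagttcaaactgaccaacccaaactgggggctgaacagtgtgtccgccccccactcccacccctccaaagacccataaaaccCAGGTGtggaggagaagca
*Cldn4*, chr5:134946935-134947184, minus strand: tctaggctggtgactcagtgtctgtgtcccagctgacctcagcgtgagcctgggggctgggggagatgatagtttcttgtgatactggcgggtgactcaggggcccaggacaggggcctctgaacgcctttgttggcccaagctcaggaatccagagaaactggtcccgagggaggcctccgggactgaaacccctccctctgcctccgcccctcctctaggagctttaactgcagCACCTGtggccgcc
*Cldn3*, chr5:134985964-134986213, plus strand: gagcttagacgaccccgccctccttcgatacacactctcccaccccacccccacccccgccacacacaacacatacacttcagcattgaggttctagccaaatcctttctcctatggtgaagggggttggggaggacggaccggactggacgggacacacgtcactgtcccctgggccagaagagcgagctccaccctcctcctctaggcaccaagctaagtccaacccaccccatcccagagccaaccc
*Epcam* held 2 matches, the nearer one 19 to 14 bases before the start, and *Cldn4* held 1, 14 to 9 bases before it. *Cldn3*, *Cldn7* and *Ocln* held 0 matches in these windows. Of 32851 mouse promoter windows of this length, 17.2% held the motif. The GRHL motif AACCGGTT (the same on both strands) was in 0 of the 5 windows and in 0.116% of all. These matches are letters in a window; binding was not measured.

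The epithelial genes were low in most tumors and very high in a few. Over the 50 tumors the median was 6.56 RPKM for *Cdh1*, 4.75 for *Epcam*, 2.14 for *Cldn3*, 1.76 for *Esrp2*, 1.44 for *Cldn4*, 1.01 for *Cldn7*, 0.832 for *Grhl2*, 0.362 for *Esrp1* and 0.194 for *Ocln*, and it was 2.50 for *Cdh2*. The values reached 106 RPKM for *Cdh1*, 302 for *Epcam*, 518 for *Cldn3*, 502 for *Cldn4* and 272 for *Cldn7*. Levels between genes depend on the length that the reads were divided by, which was recovered from the table. For *Esrp2* that length is 631 bases and its longest transcript is 5.60 times as long, so that per kilobase of longest transcript *Esrp2* moved from rank 5 to rank 9 among the 10 genes. *Ocln* had the fewest reads, with a median of 18.5 per tumor and a lowest value of 5, and *Cldn3* and *Cldn7* went down to 1 read in their lowest tumors, where a value carries large counting error.

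In 6 tumors all 9 epithelial genes were among their 10 highest values. These were Untreated_174, Untreated_182, Untreated_195, X10_105, X10_111 and glargine_63. The lowest of the 6 had 35.0 RPKM of *Cdh1*, and the highest of the 44 other tumors 21.0. For *Epcam* these values were 75.6 and 53.5, for *Ocln* 2.42 and 1.26, for *Esrp1* 11.3 and 5.47, and for *Grhl2* 7.45 and 4.70. For 6 of the 9 genes no other tumor reached into the range of the 6, while 3 others did for *Cldn4* and 1 each for *Cldn7* and *Esrp2*. The mean z-score of the 9 genes (the number of SDs from the mean over all tumors) was between 1.71 and 2.90 in the 6 tumors and at most 0.83 in the rest. The 6 tumors stand apart by these same genes, so the main comparisons and correlations below are also given without them.

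**Figure D1:**
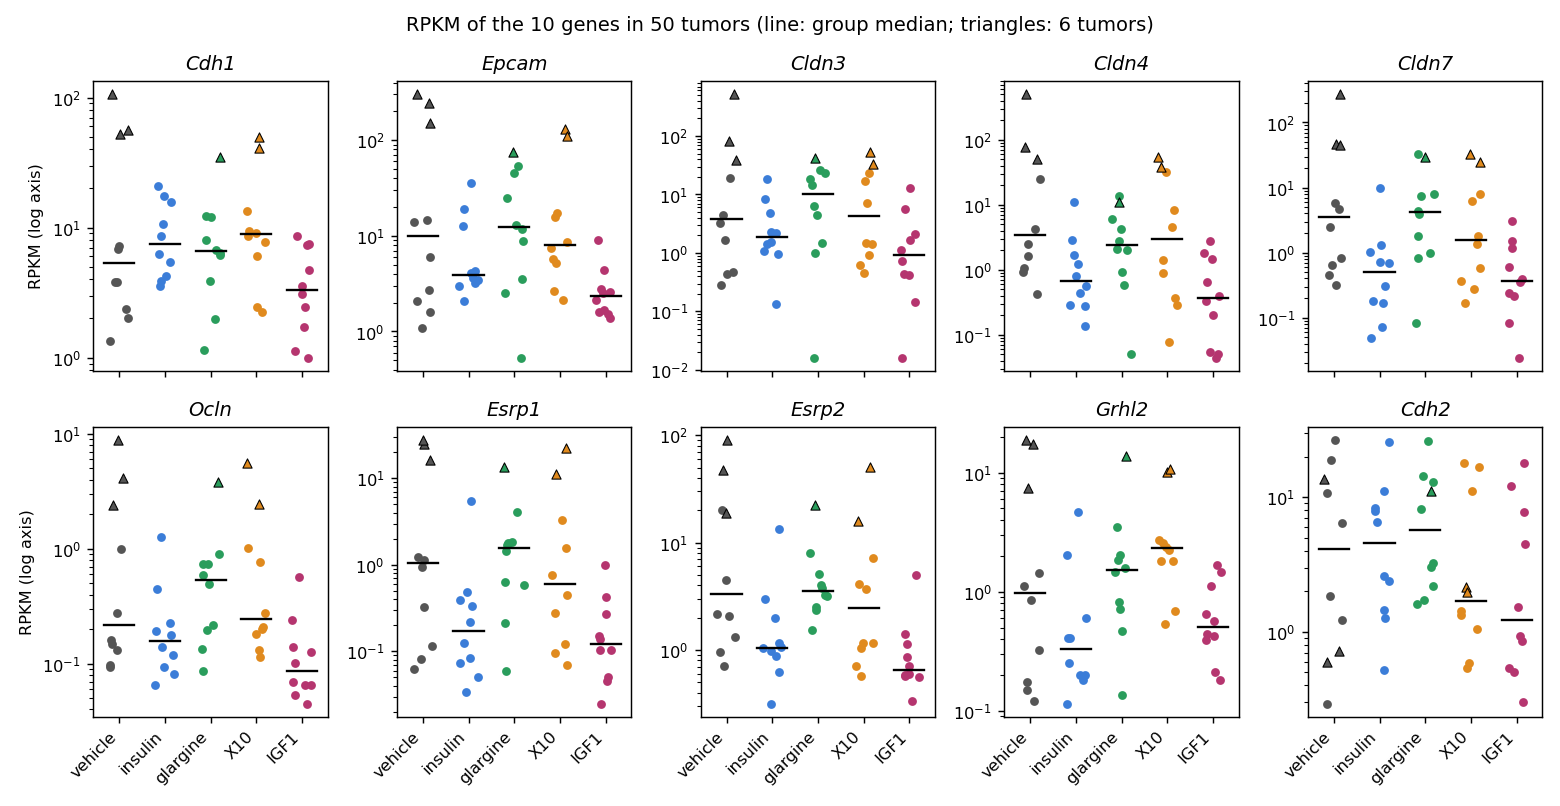
RPKM (log axis) of each of the 10 genes in the 50 tumors, by treatment group; a point is 1 tumor, a black line the group median, and triangles are the 6 tumors with all 9 epithelial genes among their 10 highest values. For *Cdh1* the 6 triangles lie between 35.0 and 106 RPKM, and no IGF1 tumor exceeds 8.59.

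**Figure D2:**
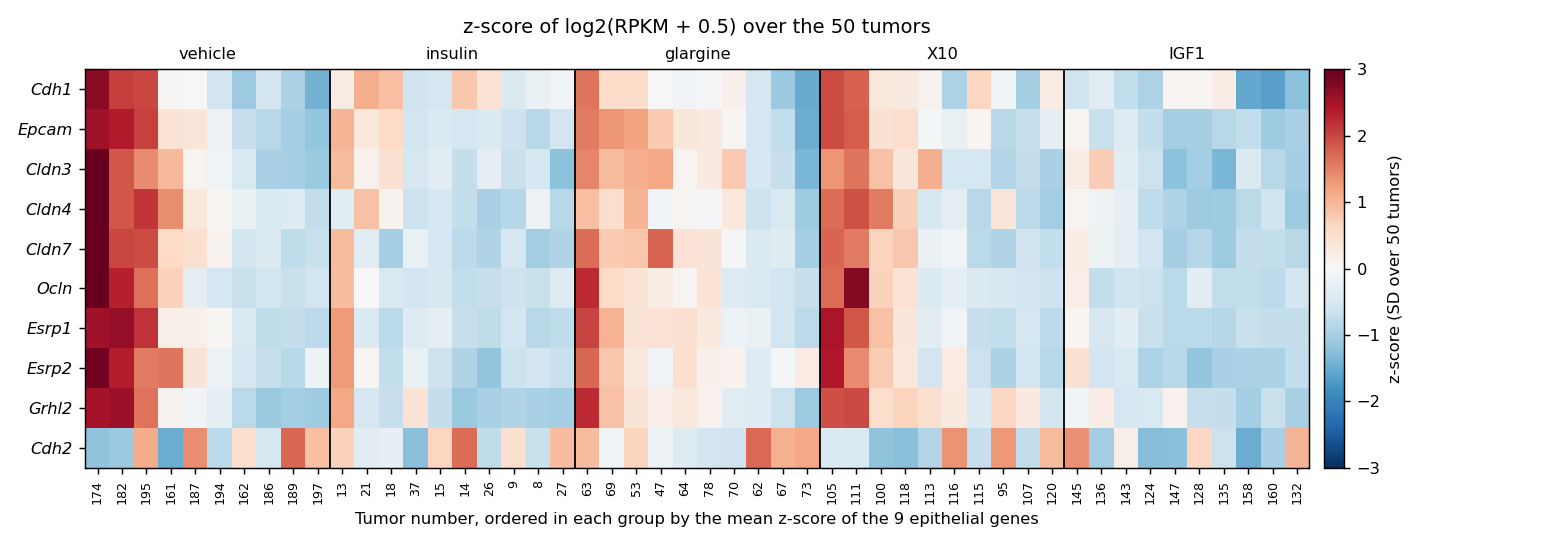
z-score of log2(RPKM + 0.5) of each gene (rows) in each tumor (columns, with the number in the tumor's label), ordered within a group by the mean z-score of the 9 epithelial genes; red is above and blue below the gene's mean over the 50 tumors. Untreated_174, Untreated_182 and Untreated_195 are red in all 9 epithelial rows, and the *Cdh2* row follows no such order.

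Markers of luminal and basal mammary epithelium were high in several of the same tumors. The 4 luminal keratins (*Krt8*, *Krt18*, *Krt19*, *Krt7*) summed to between 8.06 and 7160 RPKM. In tumor Untreated_174, the tumor highest in 7 of the 10 genes, the luminal sum was the highest of the 50 tumors. In tumor X10_105 the sum of the 4 basal epithelial markers was the highest, at 4415 RPKM, the sum of skeletal muscle genes was 2203 RPKM (rank 3 of 50), that of adipocyte genes 78.3 RPKM (rank 1) and that of endothelial genes 114 RPKM (rank 3). The other 5 of the 6 tumors ranked 26 to 50 for skeletal muscle genes, 9 to 50 for adipocyte genes and 13 to 49 for endothelial genes. Leukocyte genes ranked 41 to 50 in these 5 tumors and 18 in X10_105, and the repressors of *Cdh1* ranked 42 to 50 in all 6. The part of other cell types in these values was not tested. In bulk RNA, fewer epithelial cells and less RNA per epithelial cell cannot be told apart.

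N-cadherin RNA was not at a uniform level in these 6 tumors, which had the highest E-cadherin RNA of the 50. *Cdh2* was 0.597 RPKM in Untreated_174 and 0.721 in Untreated_182, and 2.14 and 1.98 in X10_105 and X10_111. It was 13.7 RPKM in tumor Untreated_195 and 11.1 in tumor glargine_63, both among the 12 highest of 50. High E-cadherin RNA was thus present with both low and high N-cadherin RNA.

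IGF1 tumors had the lowest median of all 5 groups for 8 of the 9 epithelial genes, all but *Grhl2*. *Cdh1* was 0.993, 3.33 and 8.59 RPKM (lowest, median and highest) in IGF1 tumors and 1.33, 5.30 and 106 in vehicle tumors. For *Epcam* these values were 1.37, 2.33 and 9.15 with IGF1 and 1.08, 9.90 and 302 with vehicle. The groups overlapped for every gene, since the lowest vehicle tumors lay within or below the IGF1 range, while 3 to 5 of the 10 vehicle tumors lay above the highest IGF1 tumor for each epithelial gene. All 10 IGF1 tumors were below the vehicle median of *Epcam*, *Cldn4*, *Cldn7* and *Esrp1*. No IGF1 tumor was among the 10 highest tumors for any epithelial gene. The other groups held 31 (vehicle), 10 (insulin), 22 (glargine) and 27 (X10) of these 90 places.

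The 4 tight junction genes had lower medians with IGF1 than with vehicle. *Cldn4*, a claudin of simple epithelia, was 0.044, 0.362 and 2.72 RPKM in IGF1 tumors and 0.420, 3.38 and 502 in vehicle tumors. *Cldn7* was 0.024, 0.371 and 3.04 with IGF1 and 0.323, 3.54 and 272 with vehicle. *Cldn3* was 0.016, 0.914 and 13.2 with IGF1 and 0.285, 3.87 and 518 with vehicle. Of the vehicle values, 5 of 10 lay above every IGF1 value for *Cldn4* and *Cldn7*, and 4 for *Cldn3*. *Ocln* was 0.045, 0.086 and 0.569 RPKM with IGF1 and 0.094, 0.219 and 8.87 with vehicle, on very few reads.

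The regulators followed the same order. *Esrp1* was 0.025, 0.122 and 0.988 RPKM in IGF1 tumors and 0.062, 1.05 and 27.8 in vehicle tumors. *Esrp2* was 0.333, 0.657 and 4.99 with IGF1 and 0.713, 3.32 and 90.8 with vehicle. *Grhl2* was 0.180, 0.506 and 1.66 with IGF1 and 0.120, 0.982 and 18.8 with vehicle. For these 3 genes the highest vehicle tumors again lay far above the IGF1 range, and the lowest did not. The lowest *Grhl2* value of the vehicle group was under that of the IGF1 group.

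On the log2(RPKM + 0.5) scale all 10 genes were lower with IGF1 than with vehicle (46.6% of all genes were), and 0 of 10 passed an adjusted p of 0.05 (limma over 16733 genes, Benjamini-Hochberg, n = 10 per group). At that threshold 0.00598% of all genes were called. The log2 fold change was -3.10 (SE 0.87) for *Cldn4*, -2.53 (SE 0.83) for *Cldn7*, -2.27 (SE 0.83) for *Epcam*, -2.25 (SE 0.65) for *Esrp2* and -2.18 (SE 0.94) for *Cldn3*. It was -1.83 (SE 0.67) for *Esrp1*, -1.26 (SE 0.60) for *Cdh1*, -1.04 (SE 0.41) for *Ocln*, -0.97 (SE 0.55) for *Grhl2* and -0.63 (SE 0.69) for *Cdh2*. The smallest adjusted p was 0.277, for *Cldn4* and *Esrp2* (limma). At an unadjusted p under 0.05 there were 8 of 10 genes in limma against 8.84% of all genes and 4.34% that were also lower. In limma voom on reads recovered from the table there were 6, against 9% of all genes. A pseudocount of 0.5 makes these fold changes smaller for the low genes. The median fold change was -2.18 over the 9 epithelial genes and 0.02 over all genes.

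Without the 6 tumors, 3 of which are vehicle tumors and 0 are IGF1 tumors, the fold change was nearer 0 or reversed for the 9 epithelial genes. The IGF1 to vehicle log2 fold change was then -1.46 for *Cldn4*, -1.09 for *Esrp2*, -0.58 for *Epcam*, -0.02 for *Cdh1* and 0.18 for *Grhl2*, and 2 of 10 genes had an unadjusted p under 0.05 (7.59% of all genes), again with 0 past the adjusted threshold. The 6 tumors were chosen for their high values of these genes, so leaving them out lowers the vehicle group by construction.

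Insulin tumors had low medians of the claudins and splicing factors, and a *Cdh1* median above that of vehicle. Their *Cdh1* values were 3.56, 7.45 and 21.0 RPKM, and no insulin tumor was as low as the lowest vehicle tumor. *Cldn4* was 0.138, 0.680 and 10.9 RPKM and *Cldn7* 0.048, 0.503 and 9.95, each with a median under the vehicle median. Tumors insulin_18 and insulin_21 combined 17.5 and 21.0 RPKM of *Cdh1*, the 2 highest outside the 6 tumors, with 0.072 and 1.03 RPKM of *Cldn7* and 0.051 and 0.334 RPKM of *Esrp1*. In insulin_18 *Epcam* (18.9 RPKM), *Cldn3* (8.32) and *Cldn4* (2.91) lay above their medians over the 50 tumors like *Cdh1*, while *Cldn7*, *Ocln*, *Esrp1*, *Esrp2* and *Grhl2* lay below theirs. Tumor insulin_13 had 35.4 RPKM of *Epcam*, 9.95 of *Cldn7* and 5.47 of *Esrp1*, with 8.62 of *Cdh1*.

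Against vehicle, all 9 epithelial genes were lower with insulin (45.5% of all genes were), and 0 of 10 genes passed (limma; 0% of all genes were called). The log2 fold change was -2.54 (SE 0.87) for *Cldn4*, -2.37 (SE 0.83) for *Cldn7*, -1.77 (SE 0.65) for *Esrp2*, -1.54 (SE 0.67) for *Esrp1* and -0.10 (SE 0.60) for *Cdh1*. The smallest adjusted p was 0.306 (limma, *Cldn4*), and 5 of 10 genes had an unadjusted p under 0.05 against 11.1% of all genes and 5.17% that were also lower (4 in voom, against 11%). Without the 6 tumors *Cdh1* was higher with insulin, by 1.14 (unadjusted p = 0.0115, adjusted p = 0.585, limma), the 1 gene of 10 under 0.05 before adjustment (7.58% of all genes), and *Cldn4* had a log2 fold change of -0.90.

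Glargine tumors had a higher median than vehicle tumors for 8 of the 9 epithelial genes, all but *Cldn4*. The median was 12.4 RPKM for *Epcam*, 10.3 for *Cldn3*, 4.17 for *Cldn7*, 3.55 for *Esrp2*, 1.57 for *Esrp1* and 0.540 for *Ocln*, each the highest median of the 5 groups. Tumor glargine_73 was at the other end, with 0.529 RPKM of *Epcam*, 0.016 of *Cldn3* and 14.4 of *Cdh2*, and it had the lowest mean z-score of all tumors. The log2 fold changes of the 9 genes against vehicle were all under 0 (as for 45.9% of all genes), from -1.51 (SE 0.87) for *Cldn4* to -0.09 (SE 0.55) for *Grhl2*. For 8 of the 9 genes glargine was thus higher in the median and lower in the mean of log2 values. Of the 10 genes 0 passed (limma; 0% of all genes called) and 0 had an unadjusted p under 0.05, where 6.23% of all genes did, and voom gave 0 at either threshold. When the 6 tumors were left out, 8 of the 9 were above 0, up to 1.26 for *Cldn3*.

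X10 tumors were highest in the median of 2 genes. *Cdh1* was 2.24, 8.85 and 49.5 RPKM, the highest median of the 5 groups, and *Grhl2* was 0.536, 2.30 and 10.7, also the highest median. No X10 tumor was below 0.5 RPKM of *Grhl2*, while 4 of the 10 vehicle tumors were. Against vehicle, 7 of the 9 epithelial genes were lower with X10 (55.6% of all genes were), and *Cdh1* (0.13, SE 0.60) and *Grhl2* (0.46, SE 0.55) were higher. Of the 10 genes 0 passed in limma or voom, where limma called 0.0657% of all genes, and 0 had an unadjusted p under 0.05, against 11% of all genes. With the 6 left out, *Grhl2* was higher with X10 by 1.14 (unadjusted p = 0.00515, adjusted p = 0.445, limma), 1 of 10 genes under 0.05 before adjustment (8.07% of all genes), and *Epcam* had a log2 fold change of 0.64.

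X10 and IGF1 both act strongly on the IGF1 receptor, and their tumors were also compared with each other. All 10 genes were higher in X10 than in IGF1 tumors, by 2.10 (SE 0.87) for *Cldn4*, 2.03 (SE 0.83) for *Epcam*, 1.42 (SE 0.55) for *Grhl2* and 1.40 (SE 0.60) for *Cdh1* on the log2 scale, where 58.3% of all genes were lower in X10. Again 0 of 10 passed (smallest adjusted p = 0.359, *Grhl2*, limma; 0% of all genes called), and 7 had an unadjusted p under 0.05 against 11.7% of all genes (7 in voom, against 10.8%). X10 libraries had the lowest median number of reads, and with log2 library size as a covariate 2 genes had an unadjusted p under 0.05 (9.44% of all genes), and without the 6 tumors 3 had (9.66%). All 4 luminal and all 4 basal epithelial markers were also higher in X10 than in IGF1 tumors, 2 of each at an unadjusted p under 0.05 (11.7% of all genes). All 9 desmosome genes (below) were higher, 5 at that level. Without the 6 tumors 0 luminal, 1 basal and 2 desmosome genes were at that level (9.66%). The part of these genes was not tested. The 20 X10 and IGF1 tumors together differed from the 30 others by between -0.81 (*Cldn7*) and 0.13 (*Grhl2*) on the log2 scale. Of the 9 epithelial genes 8 were lower (56.4% of all genes were), with 0 of 10 genes past the threshold in limma and voom and 0 at an unadjusted p under 0.05 (0.155% and 10.5% of all genes). With those 6 left out, 1 gene had an unadjusted p under 0.05 (12.6% of all genes). A test for any difference among the 5 groups gave 0 of 10 past the threshold in limma and voom, with a smallest adjusted p of 0.228 for *Esrp2*, and 6 at an unadjusted p under 0.05 (0.102% and 13.1% of all genes; without the 6 tumors 5 genes and 11% of all genes). All 4 ligands were compared with the same 10 vehicle tumors, so the 4 comparisons are not independent.

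**Figure D3:**
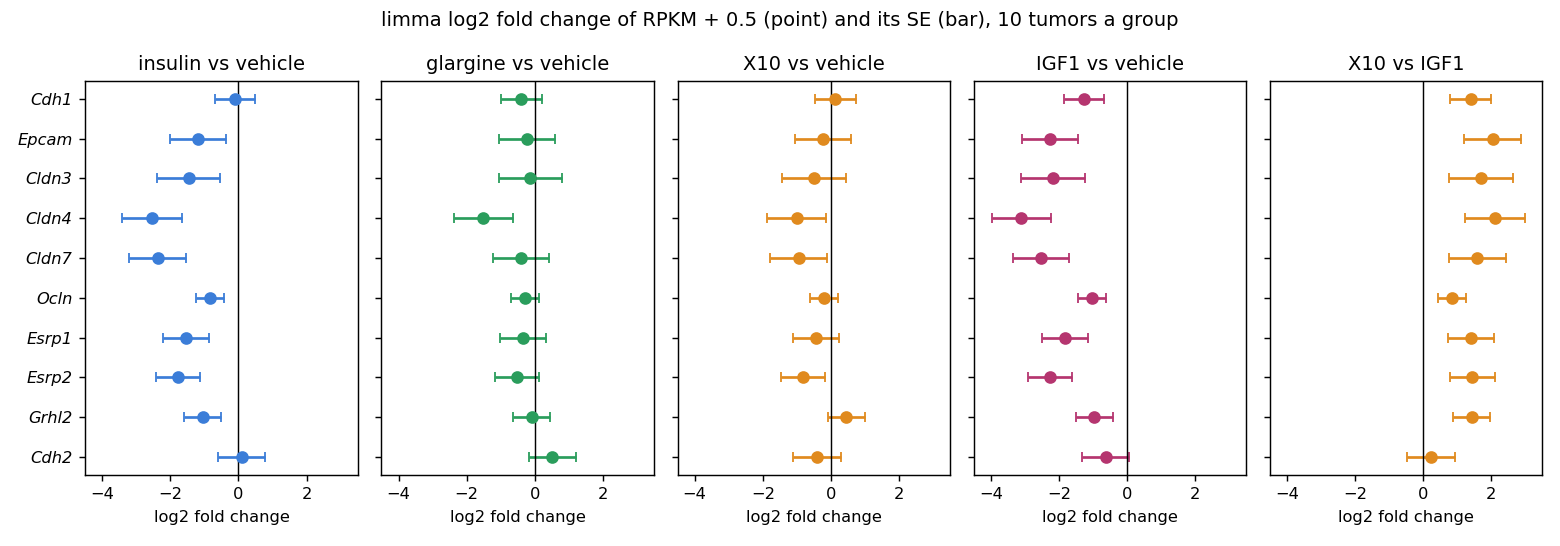
limma log2 fold change of RPKM + 0.5 (points) and its SE (bars) for each of the 10 genes in 5 comparisons with 10 tumors per group. Of the 9 epithelial genes, 8 lie lower for IGF1 against vehicle than for any other ligand (*Grhl2* is lower for insulin), down to -3.10 for *Cldn4*, and above 0 for X10 against IGF1; 0 of the points pass an adjusted p of 0.05.

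*Cdh2* (GRCm38 chr18:16588877-16809246, minus strand) was not called in any comparison. Its lowest, median and highest RPKM were 0.293, 4.15 and 26.7 with vehicle, 0.523, 4.56 and 25.8 with insulin and 1.61, 5.72 and 26.0 with glargine. They were 0.542, 1.70 and 17.9 with X10 and 0.301, 1.23 and 17.9 with IGF1. The ranges overlapped almost entirely, and the log2 fold changes against vehicle were between -0.63 (SE 0.69) and 0.52 (SE 0.69). A lower median of the epithelial genes in IGF1 tumors was not accompanied by a higher median of *Cdh2*.

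Vehicle tumors differed from each other more than the tumors of any other group. The SD of log2(RPKM + 0.5) of *Epcam* was 2.93 in vehicle tumors, 1.25 with insulin, 2.00 with glargine, 1.94 with X10 and 0.72 with IGF1. For *Esrp1* it was 2.31 with vehicle and 0.46 with IGF1, and for *Cdh1* 2.11 and 0.95. The deviation of a tumor from its group median was smaller than in vehicle for all 10 genes in all 4 ligand groups, as it was for 81% of all genes with insulin, 72.8% with glargine, 67.2% with X10 and 58.4% with IGF1, and 0 of 10 passed in any of them (limma on absolute deviations; 0.0657% of all genes called for insulin, 0.0179% each for glargine and IGF1 and 0% for X10). At an unadjusted p under 0.05 there were 9 genes for IGF1, where 5.14% of all genes were under it with a smaller deviation. There were 9 for insulin (11.4%), 2 for glargine (7.12%), namely *Cldn4* and *Esrp2*, and 0 for X10 (5.98%). The smallest adjusted p was 0.295, for *Epcam* with IGF1. When the 6 tumors were left out, the direction reversed in 16 of the 40 combinations of gene and ligand, 7 of them with glargine. The deviation was then smaller for 73.1% of all genes with insulin, 62.3% with glargine, 61.4% with X10 and 49.9% with IGF1. In that fit 0 of the 10 genes had an unadjusted p under 0.05 (limma), against 4.34% to 6.13% of all genes.

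**Figure D4:**
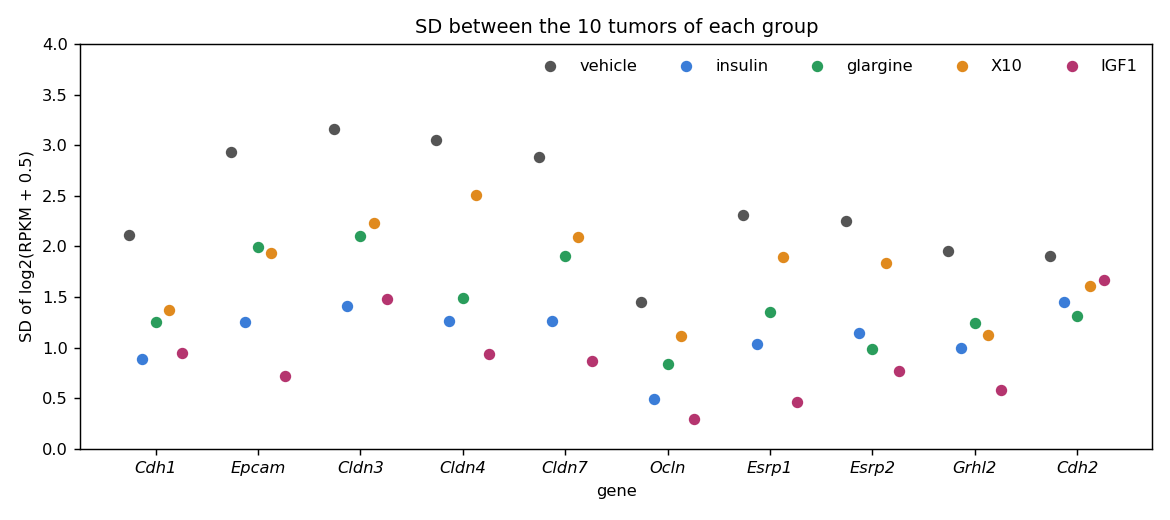
SD of log2(RPKM + 0.5) between the 10 tumors of each treatment group (points, by color) for each gene. The vehicle point is the highest for all 10 genes, and for *Epcam* it is 2.93 against 0.72 for IGF1.

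Between tumors the 9 epithelial genes moved together. Over the 50 tumors, log2(RPKM + 0.5) of *Cdh1* correlated with that of *Epcam* (Pearson's r = 0.85, Spearman's rho = 0.76), *Ocln* (0.79 and 0.60), *Cldn4* (0.75 and 0.52), *Esrp1* (0.75 and 0.44), *Cldn3* (0.74 and 0.61), *Grhl2* (0.73 and 0.53), *Cldn7* (0.69 and 0.42) and *Esrp2* (0.66 and 0.39). By r all 8 had p = 1e-05, the smallest that 100000 two-sided permutations can give, and an adjusted p of 0.00094 over 16732 genes, where 5.4% of genes were called and 3.94% with a positive r. By rho *Cldn7*, *Esrp1* and *Esrp2* did not pass (permutation test, adjusted p = 0.101, 0.0822 and 0.135). *Epcam* was rank 2 and *Ocln* rank 7 of all genes by r with *Cdh1*. With levels centred within treatment groups, and without the 2 tumors farthest from the median of *Cdh1*, all 8 still passed.

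The 6 tumors form a group of their own in the plots against *Cdh1*. They were chosen for high values of these genes, so leaving them out narrows the range of both genes and lowers r by construction. Over the 44 other tumors r with *Cdh1* was 0.64 for *Epcam* (permutation test, p = 1e-05, adjusted p = 0.0239) and between 0.17 and 0.46 for the other 7, which did not pass, where 0.0837% of all genes were called. The 28 pairs among the other 8 epithelial genes had r between 0.79 and 0.95 (median 0.87) over all tumors, and between 0.54 (*Grhl2* and *Cldn4*) and 0.91 (*Esrp1* and *Cldn7*) without the 6 (median 0.73). The 8 pairs with *Cdh1* had a median r of 0.74 over all tumors and 0.36 without the 6. Of these 8 pairs, 7 lay below all of the 28 without the 6 tumors, and that with *Epcam* did not.

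**Figure D5:**
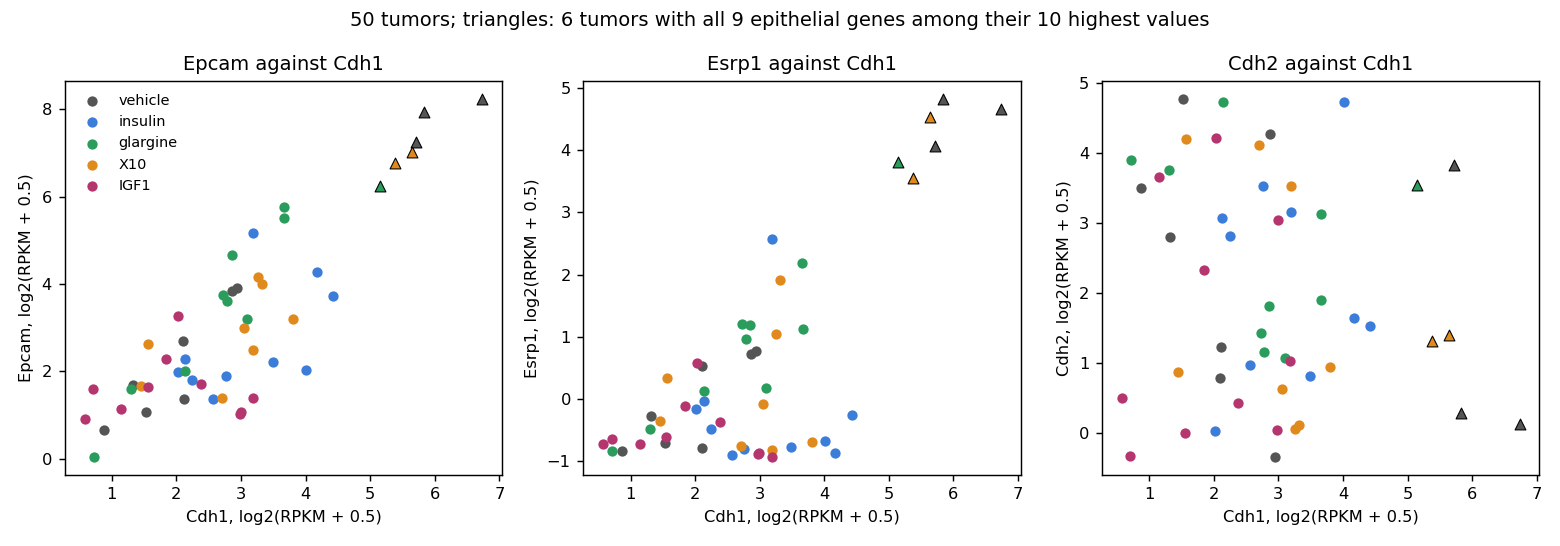
log2(RPKM + 0.5) of *Epcam*, *Esrp1* and *Cdh2* against that of *Cdh1* in 50 tumors, colored by treatment group, with triangles for the 6 tumors with all 9 epithelial genes high. *Epcam* rises with *Cdh1* also among the other 44 tumors (r = 0.64), r is 0.29 for *Esrp1* in those tumors, and *Cdh2* shows no order (r = -0.16 over the 50 tumors).

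*Cdh2* was not a mirror image of *Cdh1*. Their r was -0.16 and rho -0.11 (permutation test, p = 0.281, adjusted p = 0.639). With the 9 epithelial genes r of *Cdh2* lay between -0.29 and -0.11, and 0 of 9 passed, as did 0 of all 16732 genes, while 1 of the 9 (*Cldn3*, r = -0.29, permutation p = 0.0432) had an unadjusted p under 0.05, against 5.86% of all genes. Over the 44 other tumors these r lay between -0.29 and -0.02. The 2 tumors lowest in *Cdh2*, Untreated_161 (0.293 RPKM) and IGF1_158 (0.301 RPKM), had 24.6 and 0.326 RPKM of *Cldn4*.

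The genes most like *Cdh1* over the 50 tumors, apart from the 10, were *Lsr* (r = 0.86), which encodes a protein of tricellular junctions, *Cdcp1* (0.80), *AI661453* (0.80), *Marveld2* (0.80), which encodes the tricellular junction protein tricellulin, and *Tmem102* (0.80). Over the other 44 tumors r was 0.62 for *Lsr* (permutation test, adjusted p = 0.0239) and between 0.43 and 0.50 for the other 4, which did not pass. For *Cdh2* they were *Rps6ka6* (0.57), *Pcdh19* (0.54), a protocadherin, *Tmem47* (0.52), *Gulp1* (0.50) and *Alg2* (0.49), none of which passed over all genes (permutation test, adjusted p = 0.335 to 0.529; r = 0.45 to 0.54 over the other 44 tumors).

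Other genes of the same structures were counted in full. With *Cdh1* over the 50 tumors, 8 of 11 tight junction, 8 of 9 desmosome, 5 of 8 polarity and 3 of 10 adherens junction genes correlated positively past the threshold, as did 4 of 6 epithelial transcription and splicing factors, 4 of 4 luminal and 3 of 4 basal epithelial markers, against 3.94% of all genes (permutation test). Over the other 44 tumors 0 of them did. The called adherens junction genes were *Pvrl4* (r = 0.68), *Jup* (0.68) and *Mllt4* (0.56), and *Pvrl3* was called in the opposite direction (r = -0.44, permutation test, adjusted p = 0.0352). The called tight junction genes included *Marveld2* (0.80), *F11r* (0.75), *Marveld3* (0.68) and *Cgn* (0.65). Of the desmosome genes the 5 highest were *Pkp3* (0.75), *Dsg2* (0.71), *Dsp* (0.64), *Dsc2* (0.64) and *Evpl* (0.61). The called polarity genes were *Llgl2* (0.76), *Pard6b* (0.73), *Crb3* (0.73), *Inadl* (0.70) and *Prkcz* (0.56), and the called factors *Elf3* (0.74), *Rbm47* (0.69), *Grhl1* (0.64) and *Ehf* (0.52). Among the markers r was 0.74 for *Krt18*, 0.61 for *Krt7*, 0.53 for *Krt8*, 0.51 for *Krt19*, 0.68 for *Krt17*, 0.54 for *Krt14* and 0.42 for *Trp63*. In the comparisons of each ligand with vehicle and of X10 with IGF1, 0 genes passed of the 10 adherens junction, 13 tight junction, 9 desmosome and 8 epithelial polarity genes and of the 9 epithelial transcription and splicing factors listed (limma; 11 of the 13 and 6 of the 9 were high enough to be tested). For IGF1 against vehicle, 9 of 9 desmosome genes were lower, 5 of them at an unadjusted p under 0.05, and 7 of 8 polarity genes were lower, 5 at that level, where 46.6% of all genes were lower and 4.34% lower at that level. Also lower were 9 of 11 tight junction genes (3 at that level), 9 of 10 adherens junction genes (1) and 6 of 6 epithelial transcription and splicing factors (1). Without the 6 tumors 9 desmosome, 7 polarity, 7 tight junction and 9 adherens junction genes were lower, 1 of each list at that level (3.37% of all genes). Of the factors 5 were then lower, 0 at that level. Over all 50 tumors the median log2 fold change was -1.20 for the desmosome genes, -1.12 for the polarity genes, -0.77 for the factors, -0.60 for the tight junction genes and -0.23 for the adherens junction genes. The most abundant gene of the adherens junction list, *Ctnnb1*, which encodes beta-catenin, had a log2 fold change of -0.10 and the least abundant, *Cdh3*, -0.21. In the polarity list these were 0.20 for *Scrib* and -1.09 for *Pard6b*, and in the desmosome list -1.23 for *Perp* and -1.20 for *Evpl*. All 4 luminal and all 4 basal epithelial markers were lower too, 2 of each at an unadjusted p under 0.05 (4.34% of all genes were lower at that level). Without the 6 tumors 1 of each was lower at that level (3.37%). Their summed level was 8.06 to 748 RPKM and 0.788 to 30.5 RPKM with IGF1, against 20.0 to 7160 and 1.69 to 2587 with vehicle. All 4 luminal and all 4 basal markers were lower with insulin as well (above). The part of these markers in the values of the 10 genes was not tested.

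Repressors of *Cdh1* were counted in the same way. Their summed level (8 genes) was 206 to 349 RPKM in IGF1 tumors and 140 to 342 in vehicle tumors, and 0 of 8 passed for IGF1 against vehicle, 1 (*Zeb2*, higher by 0.46 on the log2 scale) with an unadjusted p under 0.05 (limma), against 8.84% of all genes. Without the 6 tumors 0 of the 8 had an unadjusted p under 0.05, against 7.59% of all genes. Over the 50 tumors 3 of the 8 correlated negatively with *Cdh1*, where 1.46% of all genes did, *Zeb1* (r = -0.59, permutation test, adjusted p = 0.00094), *Tcf4* (r = -0.47, adjusted p = 0.0157) and *Twist1* (r = -0.43, adjusted p = 0.0342). Of 5 mesenchymal and fibroblast genes 1 was called, the filament gene *Vim* (r = -0.54, adjusted p = 0.00523, permutation test), while the other 4 had r from -0.19 to 0.23. Of 5 leukocyte genes 1 was called, the macrophage gene *Cd68* (r = -0.44, adjusted p = 0.0327), while the other 4 had r from -0.32 to 0.13. Over the other 44 tumors 0 of the 8 repressors passed, with r from -0.36 to 0.26, and neither did *Vim* (-0.15) or *Cd68* (-0.17). Of 5 transcripts known to be spliced by ESRP proteins, 0 correlated with *Cdh1* past the threshold (r from -0.02 to 0.31), and their splicing was not measured, since the table holds 1 value per gene. The sums for milk-producing epithelium, fibroblasts, adipocytes, skeletal muscle, leukocytes and endothelium overlapped between IGF1 and vehicle tumors. Of the 5 mesenchymal and fibroblast genes, *Vim* (0.43) and *Dcn* (1.09) were higher and *Pdgfrb* (-0.61) lower with IGF1 on the log2 scale at an unadjusted p under 0.05 (8.84% of all genes were under it), with 0 past the adjusted threshold (limma). Without the 6 tumors 0 of these 5 genes were higher and 2 were lower at an unadjusted p under 0.05 (7.59% of all genes were under it). For glargine against vehicle all 4 milk protein genes were higher at an unadjusted p under 0.05 (6.23% of all genes were under it), 0 of them past the adjusted threshold (limma), their sum reached 548 RPKM, and without the 6 tumors all 4 were under that level too (4.15% of all genes). With glargine 2 of 5 mesenchymal and fibroblast genes and 1 of 4 adipocyte genes were also higher, and 1 of 4 basal epithelial markers lower, at an unadjusted p under 0.05. Without the 6 tumors these counts were 1, 1 and 0.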

How the data were processed

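Tumor RNA was poly-A selected and sequenced on the Ion Proton by the authors, aligned to GRCm38 with TopHat2 and Bowtie2 and counted per gene with HTSeq. The deposited values are RPKM per gene and tumor, which the authors computed from the counts; 1 column per tumor was used, and groups came from the sample titles. Values were taken as log2(RPKM + 0.5). Genes with a mean of at least 0.5 RPKM (16733 of 37701) were tested with limma 3.58.1 in R 4.3.3, with all 5 groups in 1 fit, a mean-variance trend and Benjamini-Hochberg adjustment over all genes. Spread was tested with limma on absolute deviations from the group median, and correlations with 100000 permutations (Benjamini-Hochberg over 16732 genes). Limma's p-values measure the spread between tumors of different mice.

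RPKM steps gave whole reads for 16496 of 16733 genes (98.6%), which served for library sizes and limma voom as an alternative. A count of 0 or few reads carries counting error that RPKM does not show. The scripts were tested on simulated data. Named genes are the 10 genes, the 5 others with the highest r with *Cdh1* and with *Cdh2*, and of each list up to 5 genes past the threshold, or otherwise its most and least abundant gene; genes behind a count of 5 or fewer at an unadjusted p were named after their values were seen. The 10 genes and all lists were chosen with earlier results of these data known. Single tumors named in the text were chosen after their values were seen. Alternatives were pseudocounts of 0.1 and 1, a minimum mean of 5 RPKM or none, quantile or upper quartile scaling, no trend, voom, library size as a covariate, only the groups compared, levels centred within groups and leaving out single tumors. Leaving out the 6 tumors with all 9 epithelial genes high was added after seeing the data.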

Additional observations from a re-analysis of the deposited data

Results flagged for a closer look

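In 37 cases the highest tumor of a group of 10 lay apart from the others by more than Dixon's critical value of 0.466, 30 on the RPKM scale and 7 on the log2 scale, over 50 combinations of gene and group. Chance flags about 1 in 20 groups where values are normally distributed, which does not hold for the right-skewed RPKM values. The genes are correlated, so that 1 tumor can be listed for several. Each tumor below was the highest of its group. Tumor Untreated_174 had 106 RPKM of *Cdh1*, 517.9 RPKM of *Cldn3*, 501.9 RPKM of *Cldn4*, 272.1 RPKM of *Cldn7*, 8.87 RPKM of *Ocln* and 90.79 RPKM of *Esrp2*. Tumor glargine_63 had 34.98 RPKM of *Cdh1*, 3.815 RPKM of *Ocln*, 13.55 RPKM of *Esrp1*, 22.61 RPKM of *Esrp2* and 13.71 RPKM of *Grhl2*, on the log2 scale too for *Ocln*. Tumor insulin_13 had 35.39 RPKM of *Epcam*, 18.54 RPKM of *Cldn3*, 9.952 RPKM of *Cldn7*, 1.257 RPKM of *Ocln*, 5.469 RPKM of *Esrp1*, 13.49 RPKM of *Esrp2* and 4.699 RPKM of *Grhl2*, on the log2 scale too for *Cldn7*, *Ocln*, *Esrp1* and *Esrp2*. Tumor IGF1_145 had 9.147 RPKM of *Epcam*, 3.042 RPKM of *Cldn7*, 0.569 RPKM of *Ocln*, 0.988 RPKM of *Esrp1* and 4.992 RPKM of *Esrp2*, on the log2 scale too for *Ocln* and *Esrp2*. Tumor IGF1_136 had 13.15 RPKM of *Cldn3*. Tumor insulin_21 had 10.88 RPKM of *Cldn4*. Tumor X10_111 had 5.612 RPKM of *Ocln*. Tumor X10_105 had 22.62 RPKM of *Esrp1* and 50.81 RPKM of *Esrp2*. Tumor insulin_14 had 25.79 RPKM of *Cdh2*. Tumor glargine_62 had 26.02 RPKM of *Cdh2*.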

How the results depend on the processing

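No paired analysis was possible because each number in the labels is 1 tumor of 1 mouse and no number is shared between groups. None of the 10 genes passed the adjusted threshold in any comparison of levels or spread under any alternative run. Without the 6 tumors the log2 fold change against vehicle reversed for 1 to 8 genes per ligand. With insulin it was 1.138 for *Cdh1*, 0.4965 for *Epcam*, 0.2087 for *Cldn3*, 0.0003399 for *Ocln*, 0.09953 for *Grhl2* and -0.2042 for *Cdh2*. With glargine it was 0.5867 for *Cdh1*, 1.171 for *Epcam*, 1.264 for *Cldn3*, 0.9206 for *Cldn7*, 0.318 for *Ocln*, 0.7068 for *Esrp1*, 0.3823 for *Esrp2* and 0.7425 for *Grhl2*. With X10 it was 0.6389 for *Epcam*, 0.4602 for *Cldn3*, 0.1589 for *Ocln* and 0.1561 for *Esrp1*. With IGF1 it was 0.1799 for *Grhl2*. The difference in deviation from the group median reversed as well. With insulin it was 0.1407 for *Cdh1*, 0.02256 for *Ocln* and 0.03777 for *Grhl2* on the log2 scale. With glargine it was 0.1003 for *Cdh1*, 0.3799 for *Epcam*, 0.3203 for *Cldn3*, 0.3859 for *Cldn7*, 0.1616 for *Ocln*, 0.1153 for *Esrp1* and 0.04753 for *Grhl2* on the log2 scale. With X10 it was 0.07185 for *Cldn3*, 0.5157 for *Cldn4*, 0.1618 for *Cldn7*, 0.06404 for *Ocln* and 0.1069 for *Esrp1* on the log2 scale. With IGF1 it was 0.1601 for *Cdh1* on the log2 scale. These 6 tumors were picked on these genes, so the vehicle group, which holds 3 of them, is lowered by construction. For glargine *Grhl2* was 0.09377 with a pseudocount of 0.1 and 0.2164 with voom, and for X10 *Cdh1* was -0.2736 and *Cdh2* 0.09987 with library size as a covariate; the cause was not tested. Of the 8 epithelial genes correlated with *Cdh1*, 5 had a mean of at least 5 RPKM and all 5 passed under that filter, and 1 of 8 (*Epcam*) passed without the 6 tumors. Leaving out single tumors turned these log2 fold changes. For insulin against vehicle the range was -0.1766 to 0.3935 for *Cdh2* and -0.3601 to 0.2911 for *Cdh1*. For glargine against vehicle the range was -0.4941 to 0.5467 for *Cldn3*, -0.4031 to 0.2554 for *Grhl2*, -0.5846 to 0.258 for *Epcam*, -0.6523 to 7.319e-05 for *Cdh1*, -0.7223 to 0.2079 for *Cldn7*, -0.5164 to 0.02417 for *Ocln* and -0.6707 to 0.03913 for *Esrp1*. For X10 against vehicle the range was -0.6096 to 0.2539 for *Epcam*, -0.1248 to 0.5264 for *Cdh1*, -0.8564 to 0.1844 for *Cldn3* and -0.4701 to 0.1161 for *Ocln*. For X10 against IGF1 the range was -0.04922 to 0.5278 for *Cdh2*. It turned these differences in spread. For X10 against vehicle the range was -0.864 to 0.001884 for *Cldn3*, -0.598 to 0.2957 for *Cldn4* and -0.6051 to 0.008015 for *Ocln*. The tumors whose omission turned a sign were Untreated_161, Untreated_162, Untreated_174, Untreated_182, Untreated_189, Untreated_194, Untreated_195, Untreated_197, X10_105, X10_111, X10_116, X10_95, glargine_62, glargine_67, glargine_73, insulin_13, insulin_14, insulin_15, insulin_27 and insulin_37. *Ocln*, *Cldn7* and *Esrp1* had the lowest median read numbers.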
